A study of Mus musculus with 20 samples.

Results

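Forkhead motif footprints were examined in ATAC-seq of cells from the Nkx2.1 lineage that lacked Tcf4, an E protein of the basic helix-loop-helix family. The members are the sequence matrices of the deposited footprint table whose name starts with FOX. There are 55 of them among 1205 matrices. Of these, 50 describe 1 forkhead factor each and stand for 31 factors, and 5 are composites of a forkhead factor with an ETS factor. Membership was set by name alone, though the family was chosen with earlier results of these data known. A matrix written in capitals (FOXP1) and one written in mixed case (Foxo1) differ only in the spelling of the table, and several factors have more than 1 version of their matrix.

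WT cells carried Nkx2.1-Cre, and Tcf4 cKO cells carried Nkx2.1-Cre with Tcf4 f/f. Both carried the Ai3 reporter, which makes EYFP after Cre has acted. Per the study's methods, GFP-positive cells were sorted from neocortices of pups at postnatal day 7 or 8, with 50000 cells for each ATAC-seq library. The footprint values are labelled P7, postnatal day 7. Nkx2.1-Cre acts in the progenitors of the ventral telencephalon, so the sorted cells are a mixture of their progeny in the neocortex and not 1 cell type. Each genotype had 2 ATAC-seq libraries and 2 Cut&Tag libraries for each of the histone marks H3K4me1, H3K27ac and H3K27me3. A line with tagged Tcf4 (Tcf4-tag), labelled control, gave 2 anti-Flag libraries of Tcf4 binding. Per the paper, the tag is made only in the Nkx2.1 lineage after Nkx2.1-Cre has acted. The sorted cells of this line came from WT neocortices, without deletion of Tcf4. The labels do not say whether 2 libraries of a genotype came from separate litters, so their spread may be technical. The 4 ATAC-seq libraries had 54159 to 72306 peaks, and read counts per library are not in the files used, so depth is known only as peak numbers. Of 14 marker genes of astrocytes, oligodendrocyte precursors, interneurons, neurons, microglia and endothelium, 12 had an ATAC-seq peak at a start site in all 4 libraries. Aldh1l1 of astrocytes and Cx3cr1 of microglia had one in 3 libraries. Peaks at start sites therefore do not separate these cell types, and fewer cells of a type cannot be told apart from a change within it in these bulk samples. The deletion of Tcf4 was not checked here.

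Forkhead factors share a winged-helix DNA-binding domain, and most of them recognise the core TGTTTAC or close variants of it. In the brain FOXP1 and FOXP2 act in neuronal differentiation, FOXJ1 is the regulator of motile cilia and of ependymal cells, and the FOXO factors respond to insulin and growth factor signals and to stress. FOXN1, the factor of the thymic epithelium, belongs to a branch that recognises a different core, GACGC. A footprint is a dip in transposase cutting over a motif inside open chromatin. TOBIAS, the program used by the authors, gives each motif site a footprint score that rises with the openness around the site and with the depth of the dip, and calls each site bound or unbound.

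The consensus regions of open chromatin with a TGTTTAC core that differed most between genotypes are shown here, since they carry the sequence that most of these matrices look for. Peaks were called there in every library of 1 genotype and in none of the other, a pattern found in 1.02% of all 32120 regions for WT alone and in 0.56% for Tcf4 cKO alone. Of the 535 regions with the core, 7 showed the WT pattern and 6 the Tcf4 cKO pattern. The windows are 151 bases around the region centre, on the plus strand of GRCm38, with the core in capitals as TGTTTAC or its reverse complement GTAAACA. The first 3 had peaks in WT alone and the last 3 in Tcf4 cKO alone, and within each set the largest difference comes first.
chr2:118554731-118554881, upstream of Bmf: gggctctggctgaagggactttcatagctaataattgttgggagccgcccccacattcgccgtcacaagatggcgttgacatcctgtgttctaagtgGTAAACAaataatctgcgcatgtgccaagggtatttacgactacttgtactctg
chrX:53126220-53126370, intron near Plac1: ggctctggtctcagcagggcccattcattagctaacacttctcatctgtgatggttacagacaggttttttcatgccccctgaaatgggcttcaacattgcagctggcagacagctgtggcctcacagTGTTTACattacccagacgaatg
chr1:72329459-72329609, exon of the Xrcc5 locus: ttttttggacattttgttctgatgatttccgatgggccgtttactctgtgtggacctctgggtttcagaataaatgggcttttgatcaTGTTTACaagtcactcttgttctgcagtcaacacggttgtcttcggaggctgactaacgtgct
chr1:8410854-8411004, intron: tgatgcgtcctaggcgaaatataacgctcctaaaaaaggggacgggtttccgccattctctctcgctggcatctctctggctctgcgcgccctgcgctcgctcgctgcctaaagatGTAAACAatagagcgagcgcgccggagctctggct
chr2:161511745-161511895, intergenic near Gm11449: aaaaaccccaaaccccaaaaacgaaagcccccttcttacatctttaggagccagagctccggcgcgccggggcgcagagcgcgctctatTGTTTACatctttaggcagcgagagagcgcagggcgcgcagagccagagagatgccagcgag
chr5:86318558-86318708, intron of the Tmprss11d locus: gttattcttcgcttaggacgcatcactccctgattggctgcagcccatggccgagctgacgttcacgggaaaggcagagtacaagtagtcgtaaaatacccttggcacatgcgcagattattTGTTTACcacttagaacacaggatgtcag

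The footprint scores of forkhead matrices were slightly lower in Tcf4 cKO, and none of the differences was large. The median score of the 50 single matrices was 0.197 in WT and 0.194 in Tcf4 cKO. Of them, 49 had a lower score in Tcf4 cKO, where 53.4% of all 1205 matrices did. Their median log2 ratio of Tcf4 cKO over WT was -0.015, against -0.0028 for all matrices. The size set for a difference was a log2 ratio past 0.1. No single forkhead matrix was past it in either direction, and neither was any composite. Over all matrices 1.66% were lower past that size and 0% were higher, so none among 50 is near the background. The ratios of the single matrices lay between -0.028 and 0.031, and the range over all matrices was -0.15 to 0.094. The lowest ratio of a single forkhead matrix stood at percentile 24.6 of all matrices, so about 24.6% of the table lay at or below all 50. The lowest composite, FOXJ2::ELF1, stood at percentile 22.3. With ratios taken relative to the median of all matrices, 48 of the 50 were still below it.

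The table rests on 1 merged alignment per genotype. These differences therefore have no replicate check and no test. The members are also not independent of each other, because matrices of this family find overlapping sites. Of the 50 single matrices, 28 are in 1 similarity cluster of the table, named after FOXP1. Matrices of FOXD2, FOXI1, FOXL1, FOXO4, FOXO6 and FOXP3, 6 in all, have identical values in every column, with 9204 sites, a score of 0.236 in WT and 0.234 in Tcf4 cKO, and 774 and 780 bound sites. Counting those 6 once leaves 45 distinct sets of values. The spread between versions of the same factor is as large as that between factors. The SD of the log2 score ratios was 0.0085 between matrices of 1 factor, pooled over the 13 factors with several, and 0.0076 between the means of the 31 factors.

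**Figure D1:**
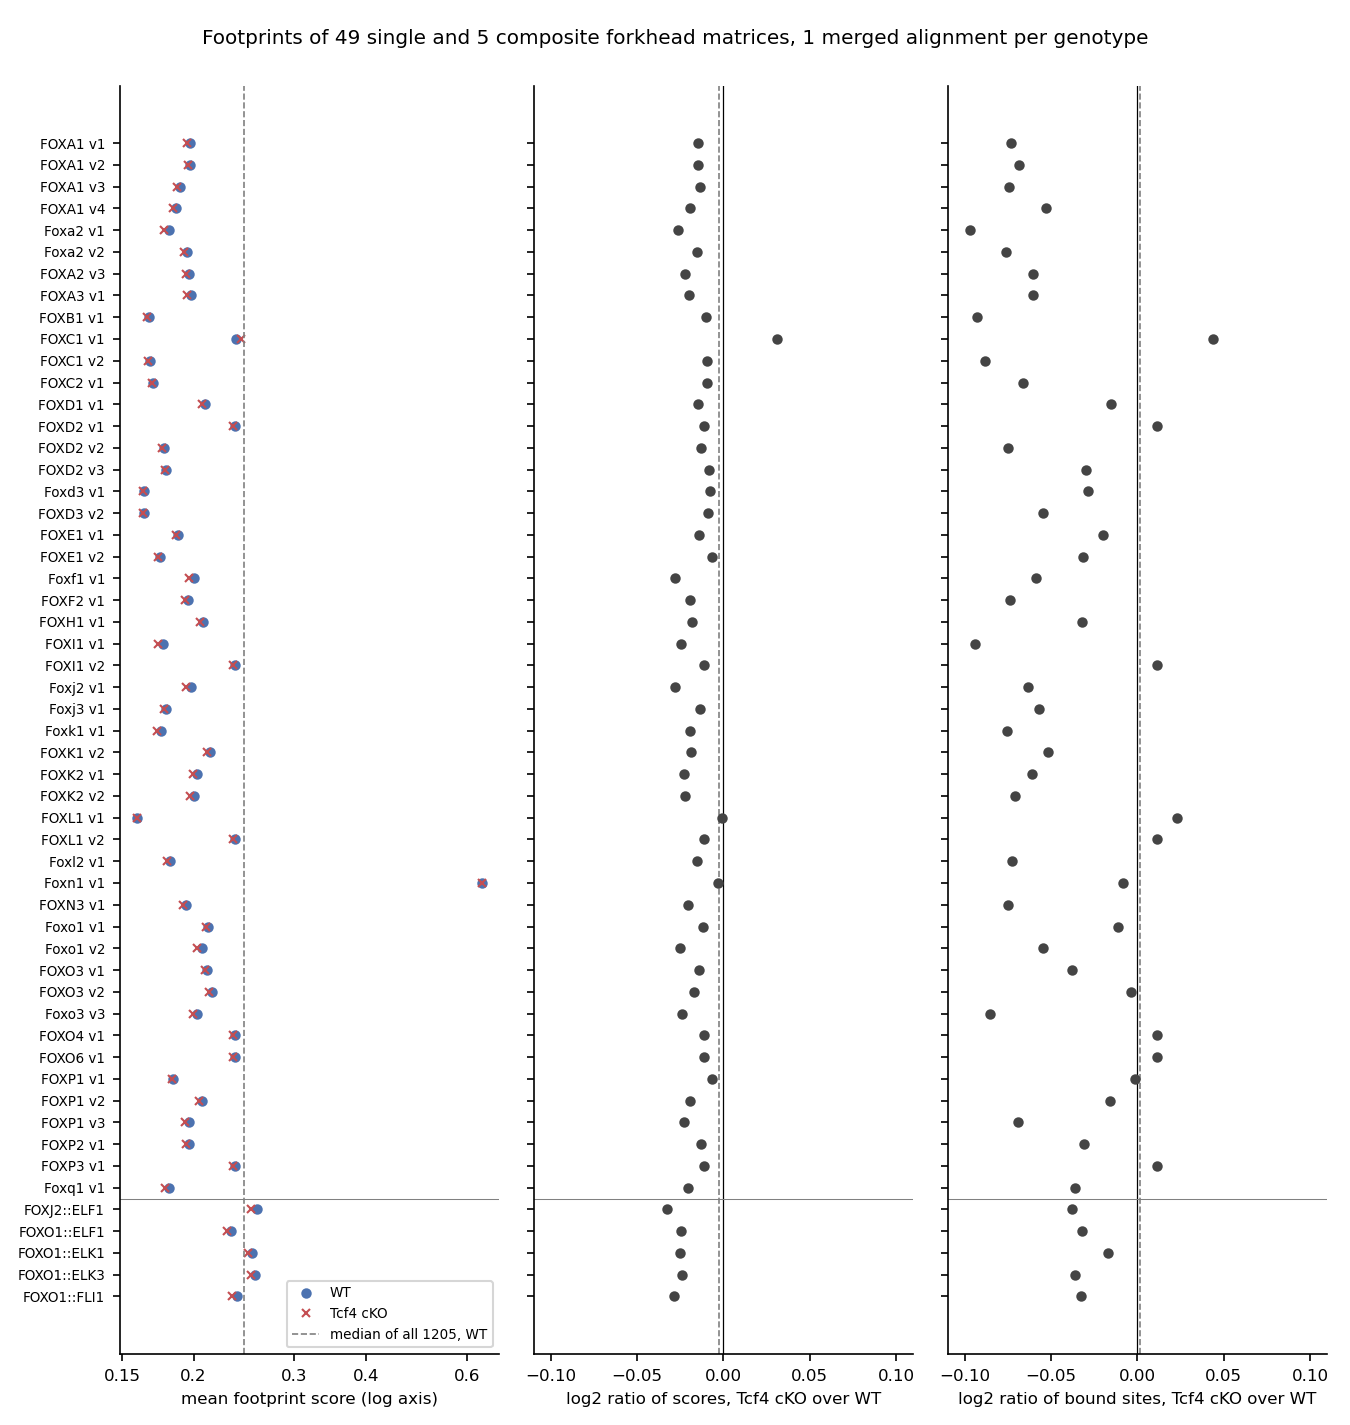
The left panel plots the mean footprint score of each forkhead matrix in WT and Tcf4 cKO on a log axis, the middle panel the log2 ratio of the scores and the right panel the log2 ratio of bound sites, with a row for each of 54 matrices, version numbers after v and the 5 composites below the line. Dashed lines are medians over all 1205 matrices. WT scores of single matrices sit between 0.159 and 0.237 except for Foxn1 at 0.638, those of composites between 0.232 and 0.258, and score ratios sit left of 0 except for the first FOXC1 matrix.

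By number of bound sites the median of the family lay further below 0 than by score. The 2 measures are not on 1 scale, since bound-site ratios over all matrices also ran wider, from -0.22 to 0.21. The median log2 ratio of bound sites was -0.055 for the single matrices and 0.0013 for all matrices. Of the 50, 42 had fewer bound sites in Tcf4 cKO, against 48.3% of all matrices. None was past a log2 ratio of 0.1, as were 4.15% of all matrices, but 28 were past 0.05, as were 15.3%. Bound sites summed over the 50 matrices were 79399 in WT and 77110 in Tcf4 cKO, a sum in which a genomic site is counted once for every matrix that finds it. The 8 matrices with more bound sites in Tcf4 cKO were the 6 with identical values and the first versions of FOXL1 and FOXC1. For no single forkhead matrix did the Wilson 95% intervals of the bound share in the 2 genotypes fail to overlap. They were apart for only 41 of all 1205 matrices, so none among 50 is near the background. These intervals cover counting error only, and the same sites were scored in both genotypes.

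**Figure D2:**
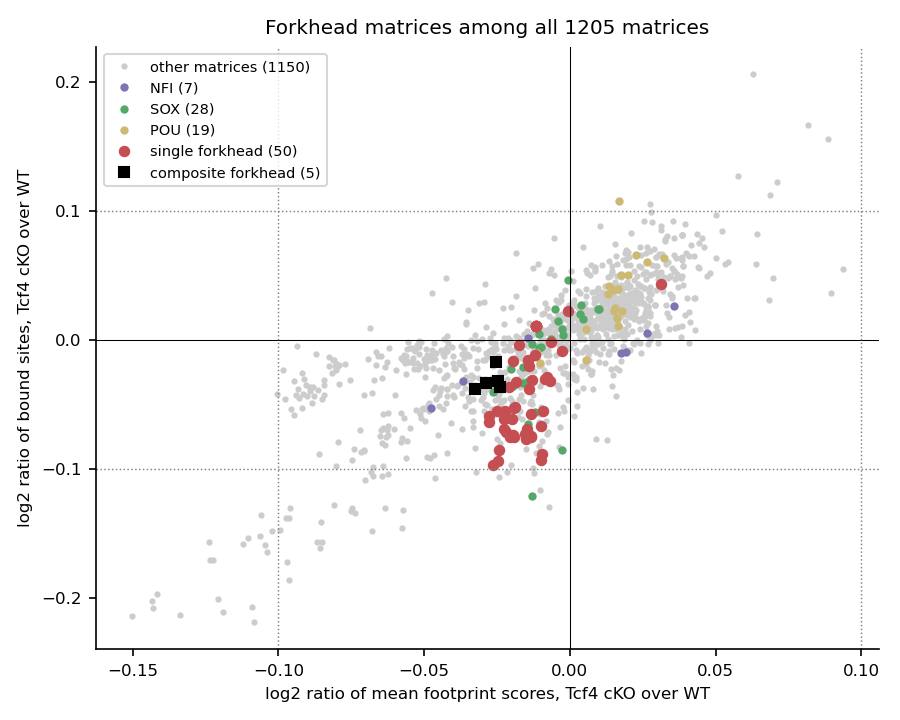
Each point is a matrix, with the log2 ratio of mean footprint scores on the x axis and that of bound sites on the y axis, Tcf4 cKO over WT, and dotted lines at 0.1 in either direction. Single forkhead matrices lie to the left of 0 except for the first FOXC1 matrix at 0.031, their bound-site ratios run from -0.097 to 0.044, and none crosses a dotted line.

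The lowest score ratios among the single matrices belonged to Foxf1, Foxj2, the first Foxa2, the second Foxo1 and the first FOXI1 matrix. FOXF1 and the FOXA factors are best known from lung, gut and liver, and FOXI1 from ion-transporting epithelia. Foxf1 had a log2 score ratio of -0.028, with 1406 bound sites in WT and 1350 in Tcf4 cKO. Foxj2 scored 0.198 and 0.194, also a log2 ratio of -0.028. The first Foxa2 matrix had the largest relative loss of bound sites, from 1307 to 1222 of 26142, and its bound share was 5.0% (95% interval 4.74 to 5.27) in WT and 4.67% (4.43 to 4.94) in Tcf4 cKO. Even this pair of intervals overlapped.

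The highest ratios belonged to the first FOXC1 matrix, the first FOXL1 matrix, Foxn1, the first FOXP1 and the second FOXE1 matrix. The first FOXC1 matrix was the only one with a higher score in Tcf4 cKO. It scored 0.237 in WT and 0.242 in Tcf4 cKO, a log2 ratio of 0.031, with 648 and 668 bound of 7434 sites, the fewest sites of any member. The second FOXC1 matrix, with 28581 sites, went the other way, with a log2 score ratio of -0.0095 and 1233 and 1160 bound sites. FOXC1, a factor of mesenchyme and of the meninges, thus has matrices that differ in direction. The first FOXP1 matrix has the most sites, 66980, and barely differed, with 3570 and 3567 bound sites. After it, most sites were found by the second and the first FOXD3 matrix (43704 and 42391), and the fewest after FOXC1 by the matrices with 9204 sites.

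Factors with known roles in neurons, metabolism or the stress response are given here whatever their values. FOXP2 scored 0.196 and 0.194, with 2250 and 2202 bound sites. The 3 FOXP1 matrices had log2 score ratios from -0.023 to -0.0064. FOXN3, a repressor that reads both kinds of forkhead core, scored 0.194 and 0.191 with 1853 and 1759 bound sites. FOXK1, which with FOXK2 acts in metabolism and autophagy, had 2 matrices with nearly the same log2 ratio of -0.019. No matrix in the table is named FOXJ1 or FOXM1. The 2 Foxo1 matrices had log2 score ratios of -0.012 and -0.025, with 2282 and 2264 bound sites for the first and 1832 and 1764 for the second. The 3 FOXO3 matrices had ratios from -0.024 to -0.014, and bound sites of the third fell from 1688 to 1591 while those of the second were 1164 and 1161. For both factors, versions of the matrix thus differed more than many factors did.

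The FOXO factors were described with 7 matrices of 4 factors. Their median WT score, 0.212, was above that of the family, and their median log2 score ratio was -0.014. Bound sites of the FOXO matrices differed by a median log2 ratio of only -0.011. The FOXA factors, with 8 matrices of 3 factors, had a median log2 ratio of bound sites of -0.071, and all 8 were past 0.05 below 0. FOXK matrices had -0.066 and all 4 were past 0.05. For FOXP the median was -0.016, with 1 of 5 past 0.05. Subfamilies whose matrices resemble each other share sites, so these medians describe groups of sequences and not the activity of a factor.

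Foxn1 stood apart in level and not in ratio. Its matrix scored 0.638 in WT and 0.637 in Tcf4 cKO, at percentile 95.6 of all matrices in WT, while the other 49 scored between 0.159 and 0.237. Of its 21888 sites, 8958 (40.9%) were bound in WT and 8907 (40.7%) in Tcf4 cKO. The median bound share of the other 49 was 5.93% in WT and 5.68% in Tcf4 cKO. Across the 50 matrices the WT score fell with the number of sites, with a Spearman coefficient of -0.64 over matrices that share sites and base composition, given as a description. The Foxn1 gene itself had no peak of any assay at its start site in any library, so a high score of the matrix does not name the factor at the sites.

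The 5 composites pair a forkhead half-site with the GGAA core of ETS factors, a large family with the ETS domain. All 5 scored lower in Tcf4 cKO. FOXJ2::ELF1 scored 0.258 in WT and 0.252 in Tcf4 cKO, with a log2 ratio of -0.032. FOXO1::FLI1 scored 0.238 and 0.233, with a log2 ratio of -0.029. FOXO1::ELK1 (0.253 and 0.249), FOXO1::ELF1 (0.232 and 0.228) and FOXO1::ELK3 (0.256 and 0.252) had log2 ratios from -0.025 to -0.024. Their bound sites differed by log2 ratios of -0.038 to -0.017. The 19 single matrices of the ELK, ELF and FLI factors had a median log2 score ratio of -0.042, and the median of the composites, -0.025, lay between this and the -0.015 of the single forkhead matrices. A further 6 composites name the forkhead factor second and are not members, with a median log2 score ratio of -0.030, and 71 composites without a forkhead factor had -0.037.

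For comparison, 3 other families were looked at, which do not cover the full range of the matrices. The 7 single matrices of NFIA, NFIB, NFIC and NFIX had a median log2 score ratio of 0.017 and a median log2 ratio of bound sites of -0.0093, and their score ratios ranged from -0.048 to 0.036. The NFI direction turns with the choice of matrices, since all 10 whose name starts with NFI, which adds the unrelated NFIL3 and a composite, had -0.021 and -0.019. Single SOX matrices (28) had -0.011 and -0.0056. Single POU matrices (19) had 0.016 and 0.036. The median bound-site ratio of the single forkhead matrices, -0.055, was lower than in these 3 families. Such values were not particular to forkhead matrices. The HOXC12 matrix had a log2 bound-site ratio of -0.13 with a score ratio of -0.0072. For HOXA10 they were -0.12 and -0.010, and for the second CDX2 matrix -0.082 and -0.010. Other HOX matrices went the other way, such as the first HOXA2 matrix with a bound-site ratio of 0.041. With 1 alignment per genotype, these family medians were not tested against each other.

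The footprint table does not give the positions of the sites, so the core sequence was searched for directly in the peaks of each library. The share of ATAC-seq peaks with TGTTTAC on either strand within 75 bp of the summit was 1.74% and 1.998% in the WT libraries and 1.93% and 1.91% in the Tcf4 cKO libraries. The WT libraries lie on both sides of the Tcf4 cKO pair. The means were 1.87% ± 0.18 and 1.92% ± 0.015 (SD, n = 2 each), and an exact two-sided permutation test gave p = 1. With 2 libraries against 2 that test cannot go below 0.333. No difference in the share of open sites with this core was detected in these peak lists.

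Over all peaks the core was less frequent at summits than beside them. In windows of the same length 1000 bp away, 2.04% to 2.20% held TGTTTAC, and the ratio of summit to flank was 0.826 to 0.933 over the 4 libraries. Summits were richer in G and C, with 53.6% to 55.5% against 45.4% to 46.0% in the flanks. In peaks over 1 kb from a start site the summit was slightly above the flank in each library, with 2.11% against 2.07% and 2.31% against 2.21% in WT, and 2.24% against 2.185% and 2.22% against 2.03% in Tcf4 cKO. In peaks within 1 kb of a start site, 1.02% and 1.175% of WT summits and 1.22% and 1.23% of Tcf4 cKO summits held it. There the groups did not overlap, with Tcf4 cKO higher by 0.13 percentage points and an exact permutation p of 0.333. In Tcf4 peaks of the Tcf4-tag line the share was 1.48% and 1.21%, against 1.97% and 2.20% in their flanks. A wider search took in TGTTTAC and every variant of it with A or G at the second base, A or G at the sixth base and C or T at the last base, which makes 8 cores. Of the peaks searched for these, 14.5% and 16.4% held one in WT and 14.8% and 15.2% in Tcf4 cKO, with 22.4% to 23.2% in the flanks. TGTTTGC alone of the 8 was above its flank in every ATAC-seq library over all peaks, at 1.03 to 1.12 times. Its shares of 3.08% and 3.26% in WT and 3.05% and 3.04% in Tcf4 cKO did not overlap (exact permutation p = 0.333). For comparison, 3.65% of 32851 RefSeq promoters of GRCm38, 300 bases long, hold TGTTTAC. These are longer than the windows at summits. At a like length, 150 bp on either side of the summit, 3.68% and 4.085% of WT peaks held it. In Tcf4 cKO 3.98% and 3.88% did.

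**Figure D3:**
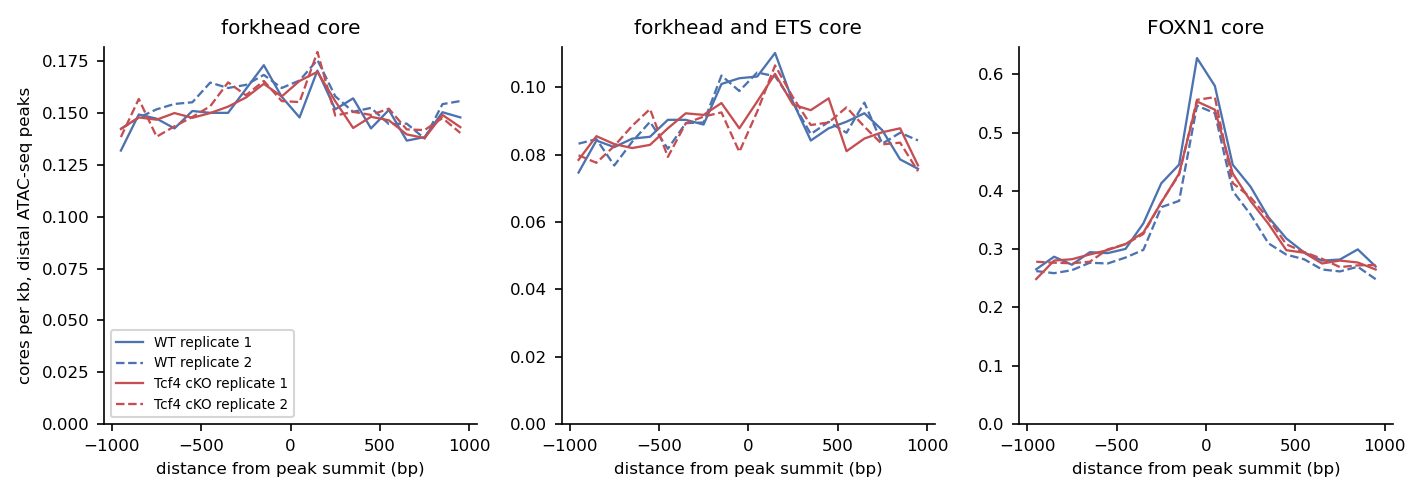
Motif cores per kb in 100-bp bins by distance from the summit of ATAC-seq peaks over 1 kb from a start site, with a line per library. The TGTTTAC core (left) lies between 0.13 and 0.18 per kb, highest about 150 bp from the summit, the overlapping forkhead and ETS core (middle) is at 0.099 to 0.10 per kb in the 2 central bins in WT and at 0.081 to 0.096 in Tcf4 cKO, and the GACGC core of FOXN1 (right) rises from 0.25 to 0.28 per kb at the edges to 0.53 to 0.63 at the summit.

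The GACGC core showed the opposite arrangement. It lay within 75 bp of the summit in 15.8% and 13.3% of WT peaks and in 14.3% and 14.7% of Tcf4 cKO peaks, 3.03 to 3.51 times its share in the flanks. Peaks within 1 kb of a start site held it at 28.5% to 30.0%, and other peaks at 7.527% to 8.425%. GACGC contains a CpG dinucleotide, and 27.2% of the RefSeq promoters, which are longer than these windows, hold it. With 150 bp on either side of the summit, 25.2% and 21.45% of all WT peaks and 23.1% and 23.7% of all Tcf4 cKO peaks held it.

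The overlapping forkhead and ETS core AACAGGAA was less frequent at summits in both Tcf4 cKO libraries. The shares were 1.34% and 1.40% in WT and 1.21% and 1.12% in Tcf4 cKO, and the groups did not overlap. The means differed by -0.20 percentage points, with an exact two-sided permutation p of 0.333, the smallest that this design allows. In the flanks the shares were 1.17% and 1.19% in WT and 1.18% and 1.20% in Tcf4 cKO. In peaks over 1 kb from a start site they were 1.539% and 1.545% in WT and 1.335% and 1.28% in Tcf4 cKO. The E-box CAGCTG, a sequence bound by E proteins such as Tcf4, differed in the same direction, with 15.1% and 15.6% in WT and 13.2% and 13.1% in Tcf4 cKO. The NFI half-site TTGGCA differed in the other direction, with 9.25% and 9.77% in WT and 10.5% and 10.7% in Tcf4 cKO. For both, the groups did not overlap and the exact permutation p was 0.333. AACAGGAA and GACGC were added after the footprint values had been seen.

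The consensus regions give the accessibility of open chromatin around the core sequence, and not of the footprinted sites, whose positions are not known. For every region the authors' table has 1 mean of log2 normalized reads for WT and 1 for Tcf4 cKO, and no value per library was used. A region was counted as lower or higher when the mean of Tcf4 cKO minus that of WT was past 0.5 on the log2 scale. Of the 535 regions with TGTTTAC within 75 bp of the centre, 107 (20%) were lower, against 12.6% of all regions, and 58 (10.8%) were higher, against 8.38%. Centred on the median of all regions, 88 (16.4%) were lower, against 10.05%, and 70 (13.1%) were higher, against 10.9%. The median difference was -0.17 for regions with the core and -0.095 for all. Position differed too. Of the regions with the core, 18.3% were promoters within 1 kb of a start site, as were 43.3% of all regions, and few promoters were past 0.5. Outside promoters, 23.1% of 437 regions with the core were lower, against 19.8% of 18211 regions, and 12.8% were higher, against 13.3%. These differences have no replicate check, and p-values of the table were not used.

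The core was also placed differently from GACGC within the regions. TGTTTAC was in 0.705% (95% interval 0.5785 to 0.858) of promoter regions and in 2.40% (2.19 to 2.63) of the others. GACGC was in 31.3% (30.5 to 32.0) of promoter regions and in 9.28% (8.87 to 9.71) of the others. Regions with TGTTTAC had 49.5% G and C in the central window, against 56.9% in all regions. Reproducible Tcf4 peaks overlapped 27.9% of the regions with the core and 37.1% of all, and outside promoters 24.0% and 23.7%. For H3K27ac in both WT libraries the shares outside promoters were 31.1% and 29.3%, and for H3K4me1 56.75% and 55.5%. By these marks, regions with the core outside promoters were close to other regions outside promoters.

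The regions printed above fall into 2 kinds. The region upstream of Bmf had MACS2 fold enrichments of 6.91 and 7.57 in WT and no peak in Tcf4 cKO, and mean log2 reads of 6.40 and 1.76. The window near Tmprss11d was the reverse, with no peak in WT, 9.62 and 7.21 in Tcf4 cKO, and mean log2 reads of 2.43 and 5.68. These windows share a stretch of 57 identical bases on opposite strands, which includes the core. The 21 bases around that core occur 5089 times in the reference genome. The windows at chr1:8410854-8411004 and chr2:161511745-161511895, both open in Tcf4 cKO alone, share 38 identical bases beside the core, and the 21 bases around each core occur 564 times. The reference marks 80.1% of the Bmf window and 100% of these other windows as repeats. For the chr1 window the mean log2 reads were 0 in WT and 5.26 in Tcf4 cKO, and for the chr2 window 3.01 and 6.27. The repeat shared by the Bmf and Tmprss11d windows was thus open in WT alone at 1 place and in Tcf4 cKO alone at the other. Per the study's methods, only uniquely mapped reads were kept for peak calling. Whether both genotypes carry each copy was not tested.

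The windows near Plac1 and Xrcc5 are of the other kind. The reference marks no base of them as repeat, and the 21 bases around each core occur 1 time in the genome. Near Plac1 the fold enrichments were 5.83 and 7.33 in WT, with mean log2 reads of 5.67 in WT and 3.75 in Tcf4 cKO, and Tcf4 peaks of both Tcf4-tag libraries overlapped the region. At the Xrcc5 locus they were 7.63 and 8.56, with means of 5.49 and 3.63 and no reproducible Tcf4 peak. Among all 535 regions with the core, 7 (1.31%) had a window marked as repeat throughout, against 0.115% of all regions. Leaving those out gave 106 lower and 55 higher regions.

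The Fox genes were then examined, since a motif can be read only by a factor that is present. No gene expression was used here, and the marks at start sites stand in for it only in part. GENCODE M21 holds 44 protein-coding forkhead genes, of which 31 have a matrix. An ATAC-seq peak within 1 kb of a start site was found in all 4 libraries for 33 of them (75%), against 65.2% of 21924 protein-coding genes. H3K27me3, the mark of Polycomb repression, was at the start site of 23 genes (52.3%) in all 4 libraries, against 12.9% of protein-coding genes. H3K27ac, the mark of active promoters, was at 10 (22.7%), against 48.3%. Of the 44 genes, 13 (29.5%) had H3K27me3 in all 4 libraries and H3K27ac in none, against 3.78% of protein-coding genes.

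The 10 genes with H3K27ac in all 4 libraries were Foxj2, Foxj3, Foxk1, Foxk2, Foxm1, Foxn2, Foxn3, Foxo3, Foxo4 and Foxp1. Each of the 10 also had ATAC-seq peaks in all 4 libraries and Tcf4 peaks in both Tcf4-tag libraries. Of all protein-coding genes with H3K27ac in all 4 libraries, 72.5% had Tcf4 in both. Over all protein-coding genes 39% had Tcf4 at a start site in both libraries, and 13 Fox genes (29.5%) did. Fold enrichments of H3K27ac (both WT libraries first) were 4.98, 4.385, 3.87 and 5.29 at Foxj3, and 4.97, 4.04, 5.785 and 4.61 at Foxo4. At Foxn3 they were 5.26, 4.37, 3.99 and 4.51, and at Foxk2 4.505, 3.95, 4.74 and 4.35. WT and Tcf4 cKO values overlapped at these genes, as they did at Foxj2 (4.04, 4.81, 4.54 and 4.71), Foxn2 (4.17, 4.935, 4.28 and 3.61) and Foxk1 (3.453, 3.802, 3.068 and 3.578, given to complete the 10). At Foxp1 they were 3.29 and 4.35 in WT and 5.09 and 4.62 in Tcf4 cKO, and at Foxm1, which drives genes of mitosis, 3.97 and 4.235 in WT and 4.34 and 4.497 in Tcf4 cKO. Both Tcf4 cKO values were thus above both WT values at these genes. Foxo3 went the other way, with 2.955 and 3.02 in WT and 2.54 and 2.57 in Tcf4 cKO. These orders come from peak lists called separately in each library and were not tested. With the start sites of each gene pooled, Foxp1 was the 1 gene of 44 (2.27%) with H3K27ac and H3K27me3 in every library. Of protein-coding genes, 5.19% had both. The marks differed between promoter regions of Foxp1 in WT. Both overlapped chr6:99521338-99522418, H3K27ac without H3K27me3 overlapped chr6:99522571-99523732, and H3K27me3 without H3K27ac overlapped chr6:99027607-99028987.

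Foxj1 had ATAC-seq peaks in all 4 libraries, no H3K27ac peak and H3K27me3 in 3, with ATAC-seq fold enrichments of 5.34 and 7.46 in WT and 6.19 and 6.06 in Tcf4 cKO. At Foxp2, H3K27me3 was present in all 4 libraries and H3K27ac in 3. Within 1 kb of a start site, Foxo3 had H3K27ac in all 4 and H3K27me3 in none. A promoter region of Foxo3 at chr10:42277351-42278558, which reaches further upstream, was overlapped in WT by H3K27me3 and not by H3K27ac.

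**Figure D4:**
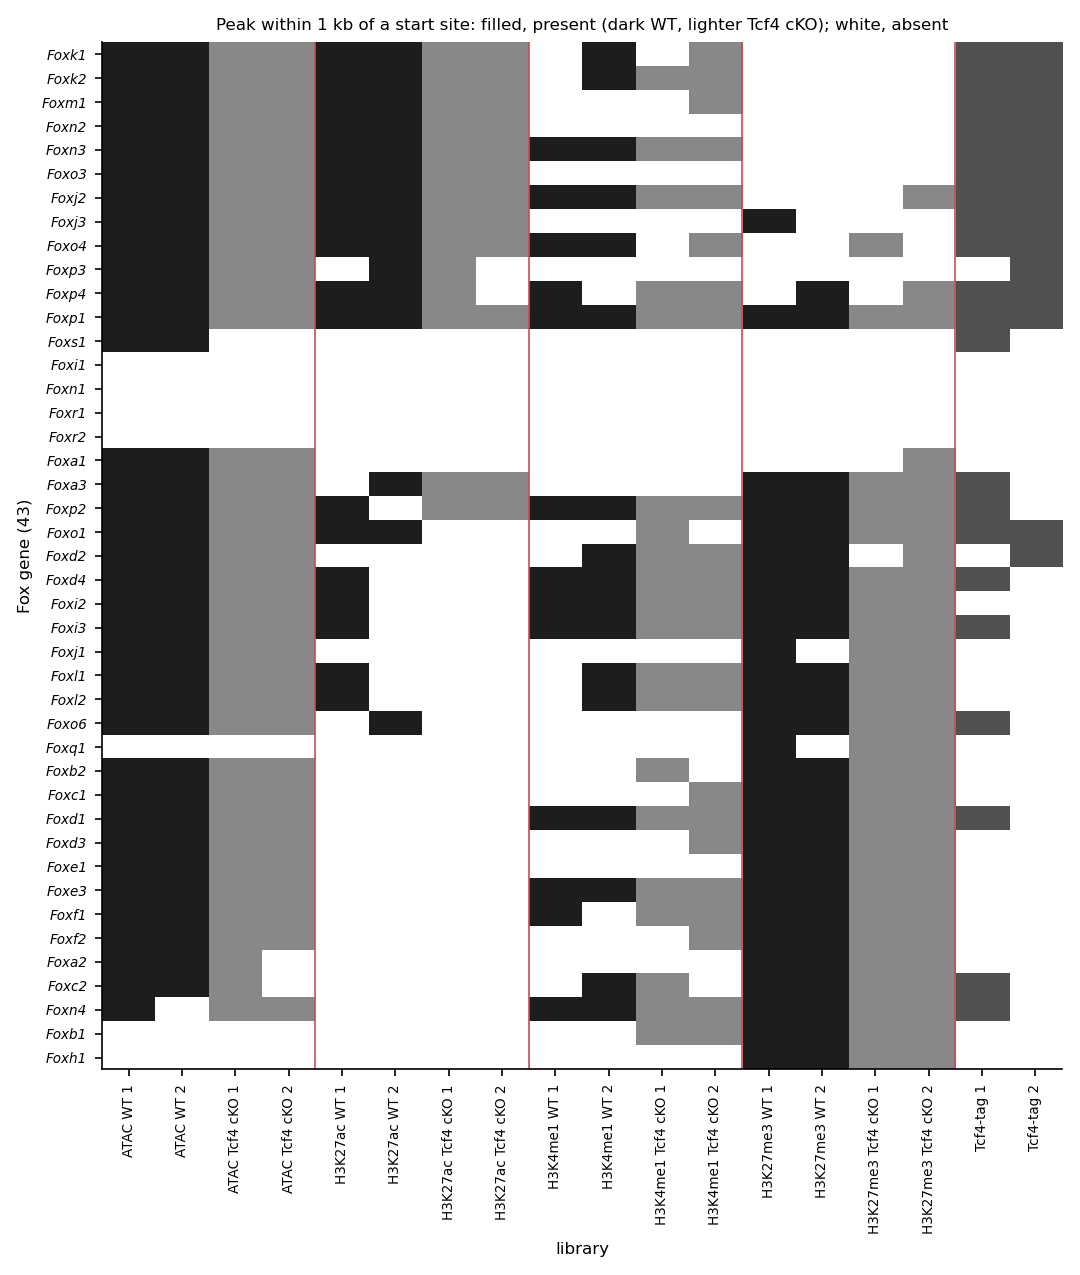
Rows are 43 of the Fox genes, columns the libraries of each assay, and a filled cell marks a peak within 1 kb of a start site (dark for WT, lighter for Tcf4 cKO, intermediate for Tcf4-tag). Most genes with H3K27ac in all 4 libraries and Tcf4 in both are at the top, 4 genes with no peak of any assay lie below them, and genes with H3K27me3 in all or most libraries fill the lower part.

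A start-site peak in both libraries of 1 genotype and neither of the other was rare among Fox genes. With all start sites of a gene pooled, only Foxs1 showed it for ATAC-seq, with fold enrichments of 4.42 and 6.40 in WT and no peak in Tcf4 cKO, and this pattern was seen at 0.552% of protein-coding genes. No Fox gene showed the reverse. A single internal start site of Foxp2 also had peaks in both WT libraries (5.94 and 5.66) and in neither Tcf4 cKO library, beside other start sites of the gene with peaks in all 4. For H3K27ac only Foxo1 showed it, with 3.815 and 3.825 in WT and no peak in Tcf4 cKO, against 1.34% of protein-coding genes. ATAC-seq at the Foxo1 start did not differ in this way, with 8.15 and 5.91 in WT and 8.805 and 8.495 in Tcf4 cKO, and H3K27me3 was there in all 4 libraries. For H3K4me1 only Foxb1 had peaks in both Tcf4 cKO libraries and neither WT library, a pattern seen at 4.67% of protein-coding genes. Foxo1 and Foxb1 were picked out after their values were seen, and a missing peak is a call at a threshold and not a zero.

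The authors assigned 67 consensus regions to 29 Fox genes by the nearest start site, one of them (Foxl3) outside the 44. Of these regions 33 were at promoters, and no promoter differed past 0.5. Over all 13909 promoter regions 3.20% were lower and 1.98% higher, so a count of 0 is near the background. The lowest promoter differences were -0.48 at Foxi3 and -0.47 at a start site inside Foxp2, and the highest was 0.21 at Foxj1. The remaining 34 regions held 8 (23.5%) that were higher in Tcf4 cKO, against 13.3% of all regions outside promoters, and 3 (8.82%) that were lower, against 19.8%. Centred on the median of all regions, 10 (29.4%) were higher, against 16.9% of all regions outside promoters, and 3 (8.82%) were lower, against 16.1%. These counts were not tested.

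The largest difference was in an intron of Foxp1, at chr6:99509167-99509963. No peak was called there in WT, and fold enrichments were 6.36 and 7.31 in Tcf4 cKO, with mean log2 reads of 3.17 and 5.88, a difference of 2.72. None of the histone marks in WT and no reproducible Tcf4 peak overlapped it, and its central window held no repeat and no core. A region near Foxn3, at chr12:99467594-99468493, had peaks in every library with 4.82 and 4.36 in WT and 8.87 and 8.98 in Tcf4 cKO, which do not overlap, and a difference of means of 1.58. Regions of Foxk1 (1.26 and 0.94), Foxj3 (1.14), Foxp1 (a second intron, 1.07), Foxp2 (1.05) and Foxp4 (0.58) made up the others. The lower ones were near Foxl3 (-1.30), in the 3' UTR of Foxk2 (-1.18) and in another intron of Foxp1 (-0.91), where fold enrichments were 8.74 and 10.6 in WT and 6.25 and 7.41 in Tcf4 cKO.

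Of the 8 higher regions, 3 hold a core of the forkhead type in the window around the centre, none of them TGTTTAC. They are shown on the plus strand with the core in capitals, since they join a forkhead core with a Fox gene region past 0.5. Other Fox gene regions that were not past 0.5 also held such cores, and 3 of the 67 regions held TGTTTAC.
Foxp1, chr6:99440040-99440190: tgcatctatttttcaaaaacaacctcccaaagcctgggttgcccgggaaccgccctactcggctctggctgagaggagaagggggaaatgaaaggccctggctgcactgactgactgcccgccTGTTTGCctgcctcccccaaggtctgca
Foxj3, chr4:119614172-119614322: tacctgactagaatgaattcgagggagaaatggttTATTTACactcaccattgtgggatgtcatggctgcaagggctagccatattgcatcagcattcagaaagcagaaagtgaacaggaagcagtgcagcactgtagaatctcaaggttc
Foxk1, chr5:142424956-142425106: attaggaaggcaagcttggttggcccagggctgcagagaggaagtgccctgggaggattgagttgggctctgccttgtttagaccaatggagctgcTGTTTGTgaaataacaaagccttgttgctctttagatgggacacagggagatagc
A core of the 8 is found in 13.9% of all consensus regions and in 19.9% of those outside promoters, where these 3 lie. These matches are thus a description of the sequence and not of binding.

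**Figure D5:**
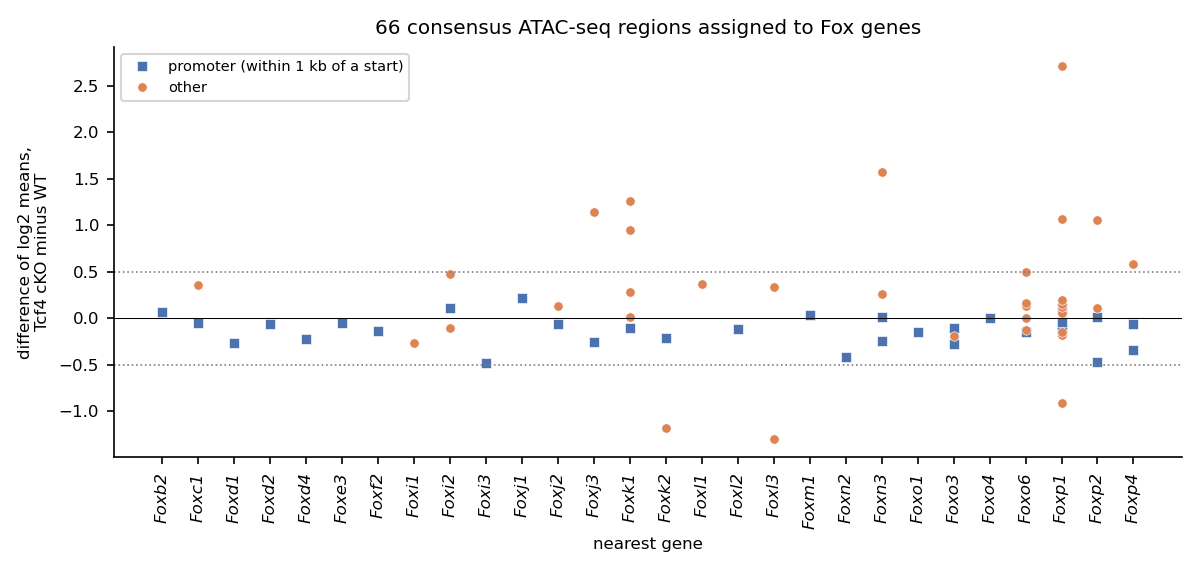
Each point is 1 of 66 consensus regions assigned to Fox genes, with the difference of the authors' mean log2 reads (Tcf4 cKO minus WT) on the y axis, squares for promoters, circles for other regions and dotted lines at 0.5 in either direction. All 32 promoters drawn lie between the dotted lines, 8 other regions lie above them and 3 below.

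Genes known as targets of the FOXO factors were looked at as a list. It holds 16 genes of the cell cycle (Cdkn1b, Ccng2, Gadd45a), apoptosis (Bcl2l11, Bcl6), insulin signalling (Irs2, Insr, Pik3ip1, Trib1), stress and oxidant defence (Sesn1, Sesn3, Sod2, Cat, Txnip) and others (Klf15, Fbxo32). All 16 had a consensus region, with 36 regions in all. The median difference was -0.17, against -0.095 for all regions. None of the 16 promoter regions was past 0.5, which is also near the background of promoters. Of the 20 other regions 6 were lower (30.0%, against 19.8% of all regions outside promoters) and 1 was higher, where 13.3% of all were. Centred on the median of all regions, 5 (25%) were lower, against 16.1%, and 2 (10%) were higher, against 16.9%. The lower ones were 4 regions assigned to Trib1, a pseudokinase (-1.39, -1.23, -0.67 and -0.59), 1 to Bcl6 (-1.18) and 1 to Sesn3 (-0.82), and another region assigned to Sesn3 was the higher one (1.44). Trib1 had more of the 20 regions than any other gene of the list, so the share of lower regions rests largely on 1 gene. At Cdkn1b, which encodes p27, the promoter differed by -0.28, and at Irs2 by -0.31. Of the 36 regions, 2 (5.56%) held TGTTTAC in the central window, against 1.67% of all regions.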

How the data were processed

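The analysis used peak lists of 4 ATAC-seq libraries, 12 histone Cut&Tag libraries and 2 Tcf4-tag libraries, grouped by their labels, and 2 tables of the whole series. The forkhead members and the gene lists were chosen with earlier results of these data known. Single-cell RNA sequencing was not analysed here.

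The authors aligned reads to mm10 with Bowtie 2 and called peaks per library with MACS2 2.1.1, and the deposited lists give a fold enrichment (a ratio to local background) and -log10 p and q-values. The authors' consensus table holds deposited mean log2 normalized reads per genotype from DiffBind. Its fold changes, p-values and FDR were not used. The authors' footprint table, from TOBIAS on 1 merged alignment per genotype, holds a mean footprint score per motif and numbers of motif sites and bound sites. Its change and p-value columns were not used.

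Here, log2 ratios were taken of scores and bound sites. A size of 0.1 was set for motifs and 0.5 for regions. Shares have Wilson 95% intervals, which cover counting error only. Library shares were compared with an exact two-sided permutation test. Sequence was read from GRCm38 with pysam 0.24.0 and samtools 1.23.1, and genes from GENCODE M21. Mitochondrial peaks (54) were left out. An overlap was at least 1 bp. Calculations used Python 3.11.15, numpy 2.4.6, pandas 2.3.3, scipy 1.17.1 and matplotlib 3.10.9, tested on made-up data.

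Named motifs were the 5 lowest and 5 highest score ratios, the 3 with most and the 3 with fewest sites, FOXJ1, FOXO1, FOXO3, FOXP1, FOXP2, FOXK1, FOXN3 and FOXM1 where present, and all composites. Named Fox genes had a start-site ATAC-seq peak in both libraries of 1 genotype alone, or were among up to 8 with H3K27ac in all 4 libraries, or were Foxj1, Foxo1, Foxo3, Foxp1 or Foxp2. Printed regions were the 3 with the largest difference in each direction among regions with the core and a peak in both libraries of 1 genotype alone, with sequence of chromosome 18 left out. Alternatives tried were other sizes, centring, composites, newest matrices, a minimum of 1000 bound sites, wider windows, 8 cores, the 20000 highest peaks, distal peaks, left-out libraries, regions centred on their median, a start-site distance of 250 bp and a -log10 q of at least 5. Of the members, 1 is counted in the totals and is otherwise not reported here. Chosen after seeing the data were counts at any size, regions without full repeat masking, the GACGC and AACAGGAA cores, histone peaks in 1 genotype alone, NFI, SOX and POU matrices without NFIL3 and composites, and centred differences at Fox gene and FOXO target regions.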

Additional observations from a re-analysis of the deposited data

How the results depend on the processing

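Of the counts of forkhead matrices, that of fewer bound sites moved from 0 past 0.1 to 28 past 0.05. Counted at any size, a choice made after seeing the data, 49 matrices had lower scores, 1 a higher score and 42 fewer bound sites. The counts of lower and higher scores stayed at 0 under the remaining alternatives, and the median log2 score ratio stayed between -0.016 and -0.012. The difference in the share of ATAC-seq peaks with the core, 0.049 percentage points (Tcf4 cKO minus WT), turned to -0.44 with 8 cores (exact permutation p = 1) and to -0.050 in the 20000 highest peaks (exact permutation p = 0.667). Leaving out 1 library each gave -0.081 to 0.18, and without WT replicate 1 it turned negative. With the replicate block, the mean of the paired differences was 0.049 percentage points (0.19 for number 1 and -0.092 for number 2), with an exact permutation p of 1 over the signs of the pairs, where 2 pairs cannot go below 0.5. Regions with the core that were lower and higher numbered 35 and 17 past 1, 224 and 117 of 1086 with 150 bp on either side (20.6% and 10.8%), and 913 and 518 of 4470 with 8 cores (20.4% and 11.6%), so the last pairs changed in number of regions more than in share. Past 1, 6.54% and 3.18% were lower and higher, against 4.18% and 2.87% of all regions. Centred on all regions, the counts were 88 and 70, and all regions then had 10.05% lower and 10.9% higher, so their balance turned. Fox genes with a start-site peak in all 4 libraries numbered 26 within 250 bp and 29 with a -log10 q of at least 5, against 33. Depth per library is unknown, and the footprint table has 1 value per genotype, which limits every ratio taken from it.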
